A study of Bos taurus with 2 samples.

Results

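The genes of the proteasome were compared in bovine embryos between 1 sham-injected pool and 1 CDKN1C-siRNA-injected pool. They were chosen by symbol, PSMA to PSMG followed by a number, which gave 46 of the 21209 gene symbols with a value. A list of 48 known subunits and helpers has 2 more, PSMB1 and PSMD13, which were not found under these symbols and were not analysed here. All embryos were made by IVF. The injected embryos received siRNA against CDKN1C, an imprinted cell-cycle inhibitor, as zygotes, and the sham embryos were pierced by the needle and received no siRNA. Each pool is a mixture of whole embryos sequenced once after RNA amplification. The number and sex of the embryos in a pool are not given in the sources used here.

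The proteasome is the large protease that degrades ubiquitin-tagged proteins. Its 20S core is a barrel of outer alpha rings, which gate entry, and inner beta rings, of which some subunits carry the proteolytic sites. The 19S regulatory particle caps the barrel. Its base holds ATPases that unfold the substrate, and its lid removes ubiquitin. In cells exposed to interferon, and in immune cells, other catalytic subunits replace the standard ones and form the immunoproteasome.

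The values were FPKM, in which the fragment count is divided by transcript length and by a measure of library size, here scaled by the upper quartile. Levels of different genes were set side by side on this scale. The effect of RNA amplification on such comparisons was not tested. In pairs of values the siRNA pool is given before the sham pool. A difference is log2 of siRNA over sham with 1 FPKM added to each, which understates the change of genes with low values. Differences were taken for the 7984 genes that averaged 1 FPKM or more, of which 43 are proteasome genes. Without replicates no difference has an error or a test, and the depth behind a value is unknown. CDKN1C itself was 14.6 FPKM after siRNA and 49.5 FPKM after the sham procedure. All 6 trophectoderm and 3 inner cell mass genes examined averaged 1 FPKM or more in these embryos. Of these 9, 8 were lower after siRNA, against 58.3% of all genes, among them KRT8, a keratin of the trophectoderm, at 1610 against 5760 FPKM. With both pools scaled to the same total FPKM 7 of the 9 were lower, while 58.8% of all genes were higher. Fewer cells of a type and less RNA per cell cannot be told apart in pools.

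Proteasome genes were abundant in both pools. In the sham pool 38 of the 46 were at or above 10 FPKM and 20 at or above 100 FPKM, and after siRNA 37 and 15 were. The highest after the sham procedure was PSMB7, of the trypsin-like site, at 1036 FPKM, followed by PSMB6, of the caspase-like site, at 901 FPKM. In the injected pool PSMB6 came first at 683 FPKM, followed by the alpha ring gene PSMA7 at 575 FPKM, the beta ring gene PSMB4 at 455 FPKM and PSMB7 at 445 FPKM. The order of levels was largely shared. Over the 43 genes the 2 pools had a Spearman correlation of 0.931, which also reflects what any pair of embryo libraries has in common.

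As a group the proteasome genes were lower after siRNA to about the same extent as other genes of high level. Of 43, 13 were higher and 30 lower, against 41.7% and 58.3% of all genes. The 30 are 69.8% of the group. Of the 28 proteasome genes that averaged 50 FPKM or more, 22 were lower, 78.6%, against 73.6% of the 1211 genes of that level, and 17.9% were at least 2-fold lower, against 21.5%. A difference of at least 2-fold was seen in 6 lower genes, PSMD8, PSMB9, PSMB7, PSMB3, PSMC3 and PSME1, and in 1 higher gene, PSMD12. All genes passed this size at 15.7% in the lower and 4.92% in the higher direction. The 6 lower genes are 14.0% of the group, near that background. The median log2 difference of the group was -0.47, against -0.17 for all genes, and at 50 FPKM or more it was -0.48 for proteasome genes against -0.44 for all genes. At equal total FPKM in both pools, a scaling that moved the median of all genes from -0.17 to 0.17, 21 of then 44 genes were higher, 2 were at least 2-fold higher and 1 was at least 2-fold lower, while 12.6% of all genes were at least 2-fold higher and 7.56% lower. With the median of all genes set to 0, the counts were 1 higher and 3 lower, against 7.72% and 11.0% of all genes. Directions below are those of the values as deposited. At equal totals they turned from lower to higher for 7 of the 43 genes, PSMA5, PSMA6, PSMA7, PSMD1, PSMD6, PSMD7 and PSMG4, and for no other.

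**Figure D1:**
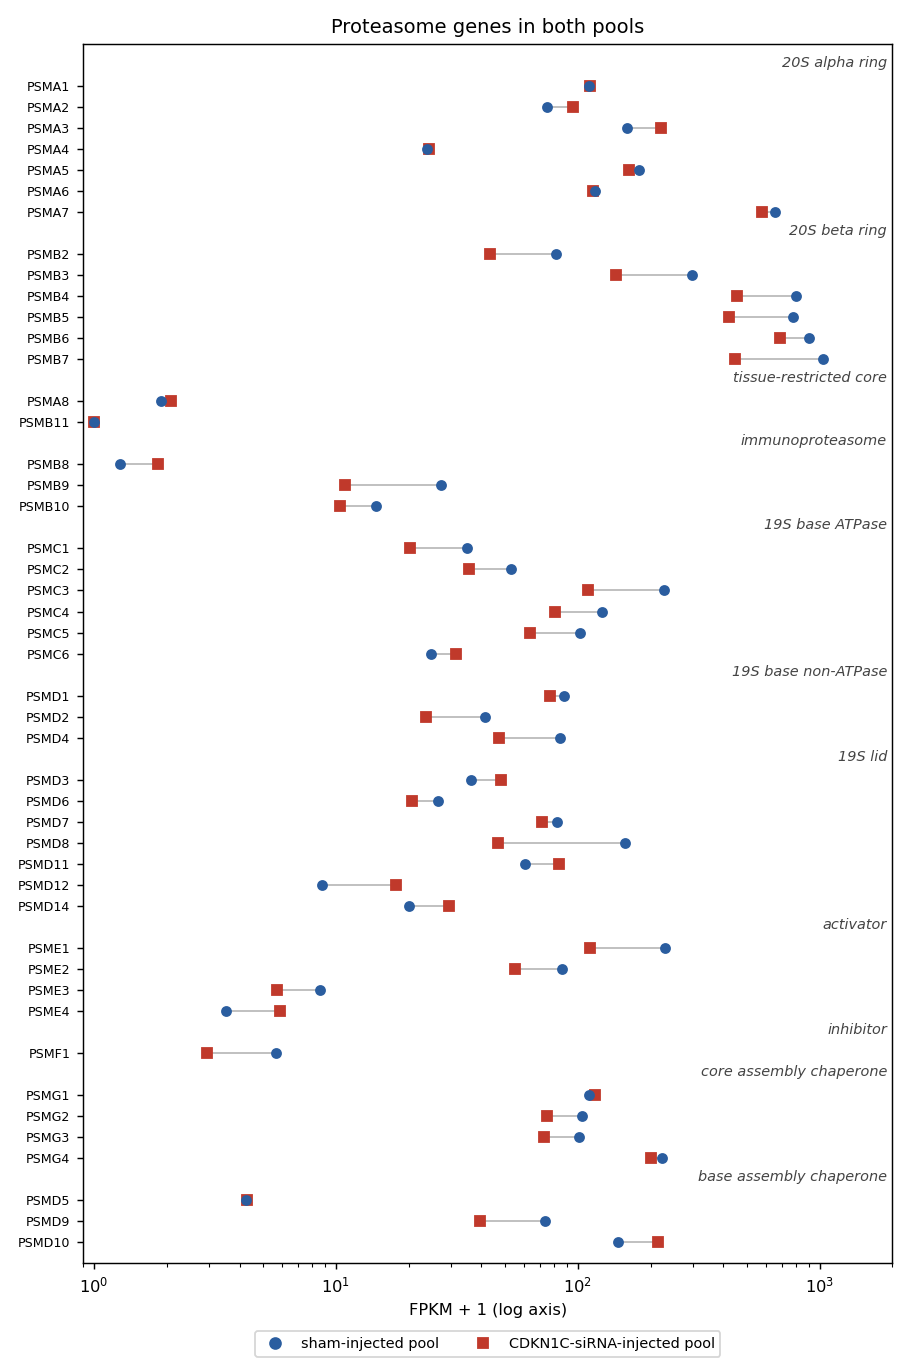
Levels as FPKM + 1 (horizontal, log axis) of all 46 proteasome genes, grouped by their place in the complex; blue circles are the sham pool and red squares the siRNA pool, with 1 library in each, and a grey line joins the values of a gene. The symbols lie close together for most alpha ring genes, with the siRNA value lower for each of the 6 beta ring genes.

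The 2 kinds of ring of the 20S core differed. Genes of the alpha ring were at nearly the same level in both pools. PSMA1 was 111 FPKM after siRNA and 110.4 FPKM after the sham procedure, PSMA4 was 23.2 against 22.8 FPKM, and PSMA6 was 115 against 117 FPKM. PSMA5 was 162 against 178 FPKM and PSMA7 575 against 653 FPKM. PSMA3 and PSMA2 were higher after siRNA, at 220.4 against 159 FPKM and at 95.05 against 73.6 FPKM. The summed level of the 7 genes after siRNA was 99.0% of that after the sham procedure, and their log2 differences ran from -0.18 to 0.47 with a median of 0.0094.

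Genes of the beta ring were lower after siRNA, 6 of the 6 found, without PSMB1. Of all genes 58.3% were lower, and of those averaging 50 FPKM or more, as these 6 did, 73.6%. Among the structural subunits PSMB3 was 143 FPKM after siRNA and 296 FPKM after the sham procedure, PSMB2 was 42.2 against 80.1 FPKM, and PSMB4 was 455 against 794 FPKM. Among the catalytic subunits PSMB7 was 2.33-fold lower, PSMB5, of the chymotrypsin-like site, was 420 against 772 FPKM, and PSMB6 was 1.32-fold lower. Their summed level after siRNA was 56.4% of the sham level. The log2 differences ran from -1.22 to -0.40 with a median of -0.89, so that the ranges of the rings did not overlap.

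The ratio of the summed alpha ring to the summed beta ring, the latter without PSMB1, was 0.595 after siRNA and 0.339 after the sham procedure, 1.76-fold apart. The core was divided into rings after the values had been seen, and genes are not replicates, so that this contrast has no test. The ranges of the rings stayed apart with a pseudocount of 0.1 or 5 and under both other scalings. At equal totals the alpha ring ran from 0.21 to 0.86 and the beta ring from -0.82 to -0.0020. Each of these settings moved the ring genes by nearly equal amounts, so that it could hardly have joined the ranges. The ranges overlapped after a loess correction for locus span. PSMB6 was then at -0.054 and PSMA5, the lowest alpha gene, at -0.15, while the medians of the rings were 0.17 and -0.67. In the loci as deposited the alpha genes span 5.56 to 25.4 kb and the beta genes 2.21 to 252 kb, and the longest span, of PSMB7, also holds 10 other symbols. PDCL, the highest of these, was 1.15 against 0.514 FPKM.

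**Figure D2:**
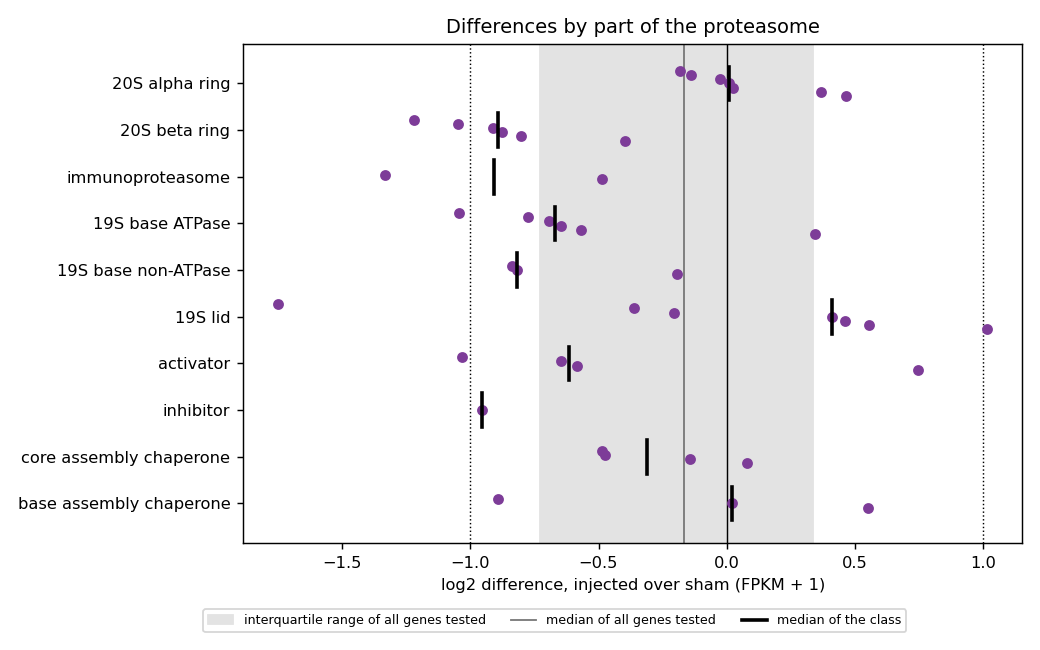
Log2 difference of siRNA over sham (horizontal) of the 43 proteasome genes that averaged 1 FPKM or more, by place in the complex; each point is a gene, black bars are class medians, the grey band is the interquartile range of all 7984 genes, from -0.73 to 0.33, and dotted lines mark 2-fold. The alpha ring lies around 0, and the beta ring and most ATPases lie to its left.

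In the 19S particle the base was mostly lower and the lid went both ways. Of 6 ATPase genes, which form the unfolding ring, 5 were lower after siRNA, against 58.3% of all genes. Of genes averaging 50 FPKM or more, as PSMC3, PSMC4 and PSMC5 did, 73.6% were lower. PSMC3 was 109 FPKM after siRNA and 226 FPKM after the sham procedure, PSMC4 was 79.4 against 124.6 FPKM, and PSMC5 was 62.2 against 101 FPKM. PSMC1 was 19.3 against 33.8 FPKM and PSMC2 34.7 against 51.9 FPKM. PSMC6 alone among them was higher, at 30.3 against 23.7 FPKM, in a span it shares with ERO1L and STYX. The summed level of the ATPases after siRNA was 59.7% of the sham level, and the median log2 difference was -0.67.

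The other base genes with a value were lower as well, 3 of 3, against 58.3% of all genes. PSMD2, a scaffold subunit, was 22.6 FPKM after siRNA and 40.6 FPKM after the sham procedure. PSMD4, a receptor for ubiquitin chains, was 46.3 against 83.5 FPKM. PSMD1, the other large scaffold subunit, was 75.5 against 86.5 FPKM and thus close to equal, in a span it shares with HTR2B. ADRM1, another ubiquitin receptor of the particle that does not carry a PSM symbol, was 57.9 against 81.6 FPKM.

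The lid held both extremes among the proteasome genes. PSMD8 was 45.8 FPKM after siRNA and 156 FPKM after the sham procedure, 3.41-fold lower, and 182 of the 7984 genes had a difference as low or lower. Its span on chromosome 18 of bosTau7, from 47480772 to 47705446, holds 8 other symbols, of which FAM98C was 26.1 against 34.7 FPKM and the others were under 1 FPKM. PSMD12 was 16.7 against 7.75 FPKM, 2.15-fold higher, and 381 genes had a difference as high or higher. It lies on chromosome 19 from 50646396 to 50666773, with no other symbol in its span.

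Another 3 lid genes were higher after siRNA, which made 4 of the 7 with a PSM symbol and a value, against 41.7% of all genes. PSMD14, the deubiquitinase that removes chains from substrates, was 28.4 FPKM after siRNA and 18.98 FPKM after the sham procedure, PSMD11 was 82.7 against 59.8 FPKM, and PSMD3 was 47.2 against 35.2 FPKM. PSMD7, the partner of PSMD14, was 69.9 against 80.7 FPKM. PSMD6 was 19.6 against 25.5 FPKM, in a span it shares with LOC100335716. SHFM1, which encodes the smallest lid protein, had by far the highest level of these genes and was nearly equal, at 3702 against 3944 FPKM. The 7 lid genes with a PSM symbol and a value, which leave out PSMD13 and SHFM1, had a median log2 difference of 0.41. Levels of these 7 were closer together after siRNA, where the highest was 4.96 times the lowest, than after the sham procedure, where it was 20.1 times. The sham extremes were PSMD8 and PSMD12, the lid genes that differed by at least 2-fold, so that this spread restates their differences. In the alpha ring, whose subunits are present in equal copies in the particle, these values were 24.8 and 28.7 times.

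Standard catalytic subunits far outweighed those of the immunoproteasome in both pools. PSMB9, which takes the place of PSMB6, was 9.86 FPKM after siRNA and 26.3 FPKM after the sham procedure, 2.67-fold lower. PSMB10, which takes the place of PSMB7, was 9.45 against 13.6 FPKM. PSMB8, which takes the place of PSMB5, was 0.837 against 0.282 FPKM, under 1 FPKM in both, and it was left out of the differences. The 3 together were 1.30% of the summed PSMB5, PSMB6 and PSMB7 after siRNA and 1.49% after the sham procedure.

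PSMB8 and PSMB9 lie on chromosome 23 of bosTau7, PSMB8 from 7399163 to 7402542 and PSMB9 from 7412733 to 7419480, 10.2 kb apart. No direction was read from PSMB8, since it was under 1 FPKM in both pools and the depth is unknown. PSMB9 divided by PSMB6 was 1.44% after siRNA and 2.92% after the sham procedure, while PSMB10 divided by PSMB7 was 2.12% against 1.32%. PSMB10 and PSMB7 were both lower after siRNA, PSMB7 by more.

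**Figure D3:**
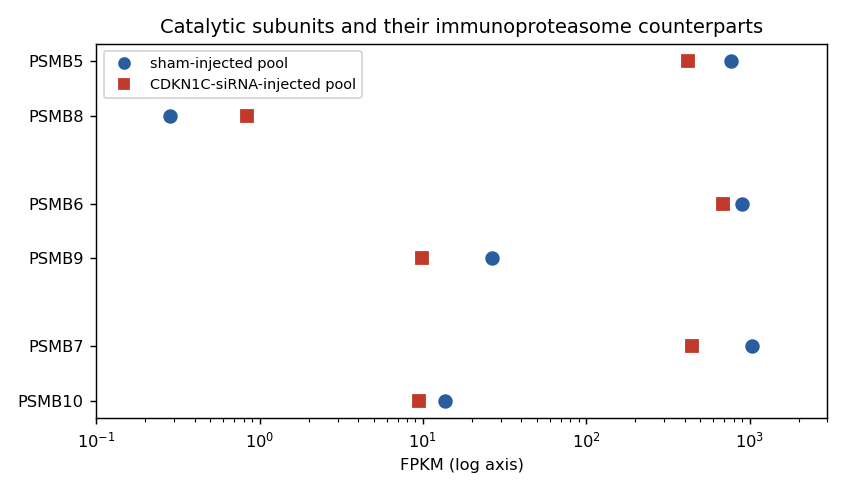
Levels in FPKM (horizontal, log axis) of the catalytic subunits PSMB5, PSMB6 and PSMB7 and of the immunoproteasome subunits that replace them, PSMB8, PSMB9 and PSMB10; blue circles are the sham pool and red squares the siRNA pool, with 1 library in each. PSMB5, PSMB6 and PSMB7 lie at 420 FPKM or above in both pools and PSMB8 lies below 1 FPKM.

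Of the genes that interferon induces together with the immunoproteasome, most were low and B2M, PSME1 and PSME2 were abundant. TAP1 and TAP2, the peptide transporter of antigen presentation, were 0.219 against 0.681 FPKM and 2.02 against 2.17 FPKM, and the transcription factor IRF1 was under 0.2 FPKM in both pools. B2M, the light chain of MHC class I, was 139 against 124 FPKM. Of the 10 genes of this list, 4 averaged 1 FPKM or more, and 1 of them, PSME1, was at least 2-fold lower, against 15.7% of all genes. PSME1 and PSME2 are proteasome genes and are counted above as well. Leukocytes are rich in immunoproteasome. Of 12 leukocyte markers, 2 averaged 1 FPKM or more, CD52 at 1.93 against 1.36 FPKM and TYROBP, listed at 0 after siRNA and at 2.67 FPKM after the sham procedure. The 12 summed to 2.06 FPKM after siRNA and 5.44 FPKM after the sham procedure, CD3E and CD79A were at 0 in both, and PTPRC was under 0.02 FPKM in both. PSMB9 and this sum were both lower after siRNA. TYROBP made up most of the fall in the sum, and CD52 was higher. The part of such cells in the PSMB9 value was not tested.

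Of the 5 genes of activators and the inhibitor of the core, 4 were lower after siRNA, against 58.3% of all genes. PSME1 and PSME2 encode the alternating subunits of PA28, a cap induced by interferon gamma that opens the core without ATP. PSME1 was 112 FPKM after siRNA and 229 FPKM after the sham procedure, and PSME2 was 54.0 against 85.2 FPKM. They lie 4.94 kb apart on chromosome 10, PSME2 from 21173414 to 21176681 and PSME1 from 21181618 to 21184280. PSME3, the nuclear relative, was 4.73 against 7.59 FPKM. PSMF1, the inhibitor PI31, was 1.93 against 4.67 FPKM, 2.42-fold lower as a ratio of FPKM. PSME4, the large activator PA200, was the exception at 4.89 against 2.51 FPKM. The median log2 difference of these 5 genes was -0.65.

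Assembly chaperones went both ways. PSMG1, PSMG2, PSMG3 and PSMG4 guide the alpha ring together. PSMG1 was 116 FPKM after siRNA and 110.2 FPKM after the sham procedure and PSMG4 was 200.4 against 222 FPKM, while PSMG2 was 73.7 against 104 FPKM and PSMG3 71.7 against 100.01 FPKM. POMP, the chaperone of beta ring assembly, which has no PSM symbol, was higher, at 48.8 against 26.8 FPKM. Among the chaperones of the base, PSMD9 was 38.5 against 72.3 FPKM, PSMD10, also known as gankyrin, was 213 against 145 FPKM, and PSMD5 was 3.30 against 3.24 FPKM. The median of the 7 PSMG and PSMD chaperones was -0.14, with log2 differences from -0.89 to 0.55.

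The core subunits with restricted expression were at or near the bottom of the range. PSMA8, the alpha subunit of male germ cells, was 1.09 FPKM after siRNA and 0.898 FPKM after the sham procedure, and PSMB11, of the thymus, was listed at 0 in both, 4.37 kb from PSMB5 on chromosome 10. With PSMB8 they are the 3 of 46 genes that did not reach a mean of 1 FPKM.

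Partners of the proteasome outside the PSM symbols were taken from fixed lists. Of 10 associated proteins 9 were found, all averaging 1 FPKM or more. After siRNA 5 of them were higher and 4 lower, of which SHFM1 and TXNL1 were higher at equal totals, and none differed by 2-fold. Of all genes 41.7% were higher as deposited and 58.8% at equal totals. UBE3C, a ubiquitin ligase bound to the particle, was 9.75 against 5.20 FPKM, the deubiquitinases USP14 and UCHL5 were 4.78 against 3.95 FPKM and 6.30 against 4.98 FPKM, and AKIRIN2, a nuclear import factor of proteasomes, was 8.45 against 7.42 FPKM. PAAF1, which binds the ATPases, was 4.86 against 7.87 FPKM, and TXNL1, a thioredoxin of the particle, was 45.9 against 51.5 FPKM.

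Among genes that encode ubiquitin, UBB, which encodes a chain of it, was 22.4 FPKM after siRNA and 50.2 FPKM after the sham procedure, lower by at least 2-fold after adding 1 FPKM. RPS27A, which encodes ubiquitin fused to a ribosomal protein, was 8770 against 10565 FPKM and was higher after siRNA at equal totals. Of 11 shuttle and extraction genes averaging 1 FPKM or more, 3 were higher and 8 lower, against 58.3% lower among all genes. At least 2-fold lower were UBXN1 and UFD1L, 2 of the 11, against 15.7% of all genes. UBXN1, a cofactor of the segregase VCP, was lowest at 132 against 340 FPKM, and RAD23B, a shuttle that carries ubiquitin chains to the proteasome, was highest at 32.1 against 18.0 FPKM.

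Of the transcription factors that control proteasome genes, NFE2L1 was 5.23 FPKM after siRNA and 4.18 FPKM after the sham procedure and its relative NFE2L2 was 7.32 against 5.57 FPKM. The list of these factors also holds KEAP1, the inhibitor of NFE2L2. Of its 5 genes averaging 1 FPKM or more, MAFF, a small MAF partner, was highest in difference, at 2.10 against 0.876 FPKM. KEAP1 was lowest, at 29.3 against 46.8 FPKM. None of the 5 differed by 2-fold after adding 1 FPKM.

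The span of the locus was set beside the differences. Of 19 proteasome genes with a span under 10 kb, 2 were higher after siRNA, PSMA4 and PSMD10, and their median was -0.58, against 27.8% higher and a median of -0.49 for all genes of that span. Of 14 with a span over 20 kb, 7 were higher, with a median of -0.0029, against 53.0% higher and a median of 0.055 for all genes. The Spearman correlation between difference and span was weak over the 43 proteasome genes, at 0.227, with a Pearson correlation with log span of 0.138. Spearman values were 0.388 over the 37 whose span holds no other symbol, and 0.288 over all 7984 genes. These points share the same 2 libraries, and the part of transcript length in the values was not tested.

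**Figure D4:**
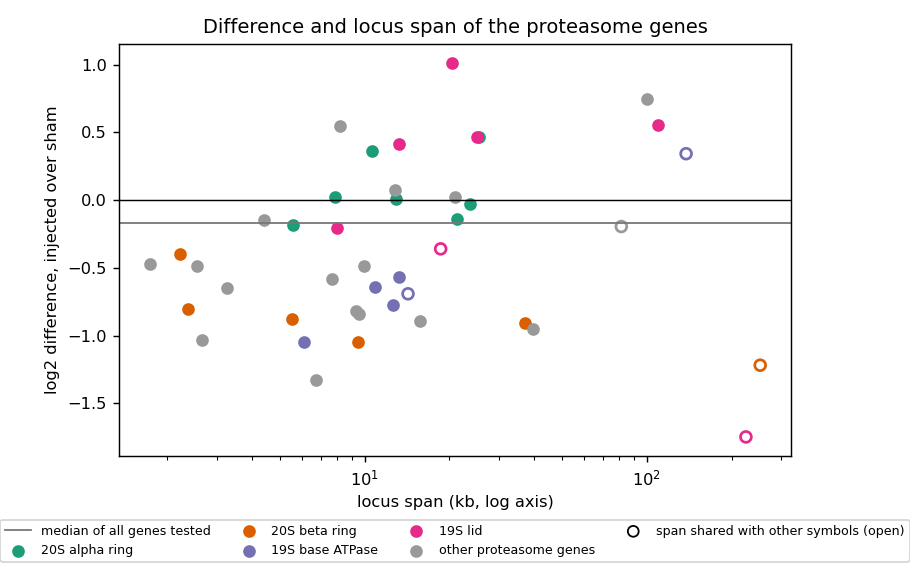
Log2 difference of siRNA over sham (vertical) against the span of the locus in kb (horizontal, log axis) for the same 43 proteasome genes; colours mark parts of the complex and open symbols the 6 genes whose span holds other symbols. Beta ring genes lie below 0 at short and at long spans, and alpha ring genes lie around 0 between 5.56 and 25.4 kb.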

How the data were processed

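The authors amplified the RNA of each embryo pool, sequenced it with Illumina chemistry, aligned reads by TopHat to the bosTau7 genome and estimated abundance with Cufflinks 2.0.2. The deposited values are FPKM per locus, upper-quartile normalized and corrected for sequence bias by the authors; the gene annotation is not given in the sources used here. Depth is therefore unknown, and the total FPKM of the injected pool was 75.9% of the sham total. Loci sharing a symbol were summed, and no proteasome symbol had more than 1 locus. Differences used a pseudocount of 1 FPKM and a minimum mean of 1 FPKM, and a fold of 2 was counted. With 1 library per group no test between pools was run. All proteasome genes are named; of the other lists, the highest and lowest members are named, and further associated and ubiquitin genes; some genes of these lists are not reported here. The members and lists were chosen with earlier results of these data known. No sequences are shown, since none were at hand. Cumulus and fibroblast markers were also summed. Alternatives are given with their effect after the report. Python 3.11.15, pandas 2.3.3, NumPy 2.4.6, SciPy 1.17.1, statsmodels 0.14.6 and matplotlib 3.10.9 were used.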

Additional observations from a re-analysis of the deposited data

How the results depend on the processing

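With 1 library per pool no library could be left out, and depth is unknown. A change of a median by at most 0.1 (log2) was taken as no change. The 6 genes at least 2-fold lower became 3 with the median of all genes set to 0, where 11.0% of all genes passed. They became 1 at equal totals, where 7.56% of all genes did. The count was 17 at a fold of 1.5 and 0 at a fold of 4, and the share of all genes at these folds is not given. The 1 gene at least 2-fold higher became 0 with a pseudocount of 5, where 1.49% of all genes passed, or at a fold of 4. It became 2 at equal totals, where 12.6% of all genes passed, or at a fold of 1.5. Setting the median of all genes to 0 gave medians of -0.31 for all proteasome genes, -0.018 for the 20S core, -0.30 for the 19S particle, -0.74 for the immunoproteasome, -0.48 for activators and inhibitor and 0.021 for assembly chaperones, the last reversed. Equal totals gave -0.042, 0.21, -0.081, -0.54, -0.26 and 0.25 in the same order, with the core (from -0.18) and the chaperones (from -0.14) reversed. The 20S core as 1 class joins the 2 rings described above. A loess fit on locus span, with span 0.3 and the median of all genes kept, gave -0.26 for all, -0.076 for the core, -0.58 for the immunoproteasome, -0.30 for activators and inhibitor and 0.017 for chaperones, the last reversed. A pseudocount of 5 gave -0.37 for all, -0.72 for the immunoproteasome and -0.48 for activators and inhibitor. With no filter the immunoproteasome median, then including PSMB8, was -0.49 (from -0.91), and with a minimum mean of 5 FPKM the chaperone median was -0.31. The 6 genes whose span holds other symbols were also left out, an alternative chosen after seeing the data. Of the remaining 37 genes 4 were lower and 1 higher at 2-fold, against 15.7% and 4.92% of all genes. The 19S median was then -0.57 (from -0.46). Taking the locus with the highest mean changed none of these values.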

Other observations

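Markers of other cell types were examined beside the proteasome genes. Of 14 cumulus and granulosa markers, 7 averaged 1 FPKM or more, and the 14 summed to 50.3 FPKM after siRNA and 48.7 FPKM after the sham procedure. Members of this sum went apart. HSD3B1 was 3.29 FPKM after siRNA and 15.7 FPKM after the sham procedure, while GATM was 6.57 FPKM after siRNA and 0.686 FPKM after the sham procedure. PTGS2, which made up most of the siRNA sum, was 26.9 and 16.9 FPKM. Of 11 fibroblast markers, 4 averaged 1 FPKM or more, and the 11 summed to 28.6 FPKM after siRNA and 4.69 FPKM after the sham procedure, of which VIM was 18.5 and 1.46 FPKM and LUM 4.77 and 0.138 FPKM, with COL1A1 listed at 0 in both. The part of such cells in the proteasome values was not tested.

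Levels within the base ATPases, as within the 7 lid genes, were closer together after siRNA. Their highest gene was 5.65 times the lowest after siRNA and 9.55 times after the sham procedure. The sham extremes were PSMC3, the ATPase gene with the lowest difference, and PSMC6, the only higher ATPase gene. In the beta ring the spread was 16.2 times after siRNA and 12.9 times after the sham procedure. Over all 7984 genes the SD of log2(FPKM + 1) was 2.25 after siRNA and 2.36 after the sham procedure.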
